A study of Sus scrofa with 9 samples.

Results

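The chaperonin TRiC (also called CCT) and its partner prefoldin fold newly made actin and tubulin in the cytosol. Their RNA was measured here through 10 genes: the TRiC subunit genes TCP1, CCT2, CCT3, CCT4, CCT5, CCT7 and CCT8, and the prefoldin subunit genes PFDN1, PFDN2 and PFDN5. The 10 genes were taken by symbol from a table of 23507 genes, and each symbol matched 1 row. The other subunit genes of both complexes are given separately further on.

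TRiC is a barrel of stacked rings. Each ring is built from different but related subunits, and ATP binding and hydrolysis close the chamber around an unfolded protein. Prefoldin is a smaller complex with tentacle-like arms that holds unfolded actin or tubulin and hands it to TRiC. Tubulin then passes through further folding cofactors before it can enter microtubules. An egg needs tubulin for its meiotic spindle and actin for its cortex, and TRiC is also known to fold CDC20, an activator of the anaphase-promoting complex.

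The libraries came from oocytes of wild-type pigs (Sus scrofa) that had reached metaphase II (MII). They were collected within compact cumulus layers and matured in a medium with follicular fluid, gonadotropins and EGF. In the first group L-Asp was present while immature (germinal vesicle) oocytes were kept at 41.5 °C for 24 h, after which they stayed at 38.5 °C until MII. The labels list 0.5, 1.0 and 1.5 mmol/L and do not say which was sequenced. The heat stress group had the same heat without L-Asp, and the control group was kept at 38.5 °C throughout. Each group had 3 libraries, and 25 oocytes per group are stated without their division among libraries. Whether the libraries of a group stem from different animals or culture dishes is not labelled, so each p-value rests on the spread among these libraries, which may be technical.

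Library totals were 41693395 to 49008681 counts with heat plus L-Asp, 46198885 to 53327419 with heat and 54965064 to 58361475 in control. The control libraries were much closer to each other than the libraries of either heated group. The median index of dispersion between pairs (1 for independent counts) was 79.5 to 84.9 with heat plus L-Asp, 109 to 119 with heat and 5.19 to 5.22 in control. In control, low counts piled up at 4 (604, 604 and 657 genes, against 318 to 351 at 3 and 216 to 235 at 5). The heated libraries had a milder pile at 4 (263 to 297 genes, against 188 to 241 at 3 and 123 to 151 at 5). Counts that came only in steps of 4 would give an index of 4 from sampling alone. The control index was above this too. Because of this closeness the mean of the 3 control libraries entered the tests as 1 sample, a choice that decides how many genes are called against control. Each member had 315 to 47573 counts per library, and all 10 passed the filter on low counts. The labelled cell type was checked on 17 oocyte marker genes, which summed to 23860 to 27804 CPM with heat plus L-Asp, 19294 to 23669 CPM with heat and 36164 to 36484 CPM in control. The largest part was BTG4, at 5426 to 9649, 5484 to 8803 and 15736 to 15897 CPM in the same order of groups. The markers did not all move with the sum. In all 3 heat libraries, 4 of the 17 lay above the averaged control (17.3% of all genes tested) and 9 below it (25%). CPM stand for counts brought to the same library size with the trimmed mean of M values (TMM). The part of these differences in the members' values was not tested. In bulk libraries, less RNA per cell and fewer cells of a type cannot be told apart, and with oligo(dT) priming neither can RNA amount and tail length.

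Levels differed widely between subunits whose proteins are built into the same rings. FPKM, fragment counts scaled to library size and divided by transcript length, allow levels of genes to be compared. They put CCT8 first, at 170.1 to 224 with heat plus L-Asp, 182 to 238 with heat and 185 to 189.7 in control. CCT2 came next at 110.4 to 136, 144 to 211 and 137 to 143 FPKM in the same order of groups. TCP1 measured 17.1 to 20.4 FPKM with heat plus L-Asp, 22.5 to 26.2 FPKM with heat and 18.5 to 19.6 FPKM in control. CCT5 measured 17.9 to 22.8, 13.9 to 20.8 and 17.3 to 18.3 FPKM, and CCT7 15.3 to 16.4, 6.47 to 15.2 and 13.5 to 14.2 FPKM. CCT3 lay between 5.76 and 14.0 FPKM over all libraries, and CCT4 was lowest at 0.963 to 2.07, 1.52 to 2.78 and 1.02 to 1.13 FPKM. CCT8 and CCT2 together held 81.2% to 83.7% of the summed FPKM of the 7 TRiC genes with heat plus L-Asp, 81.7% to 87.9% with heat and 84.5% to 84.7% in control.

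Within control every neighbour in the order CCT8, CCT2, TCP1, CCT5, CCT7, CCT3, CCT4 was separated by all 3 libraries. With heat, CCT8 overlapped CCT2, CCT5 overlapped CCT7, and CCT7 overlapped CCT3. With heat plus L-Asp, CCT5 was the third and overlapped TCP1. Among the prefoldin genes the order PFDN2, PFDN1, PFDN5 held without overlap in each group. These levels depend on the transcript lengths behind the FPKM. The lengths that counts and FPKM imply were 7664 nt for CCT4, 6561 nt for CCT5 and 5270 nt for TCP1. They were 3993 nt for CCT8 and 2554 nt for CCT2. At the same count, a longer annotated transcript model gives a lower FPKM. In CPM, which are not divided by length, the averaged control had 8.90 for CCT4, 388 for CCT2 and 815 for CCT8. The part of length in the order of the genes was not tested.

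**Figure D1:**
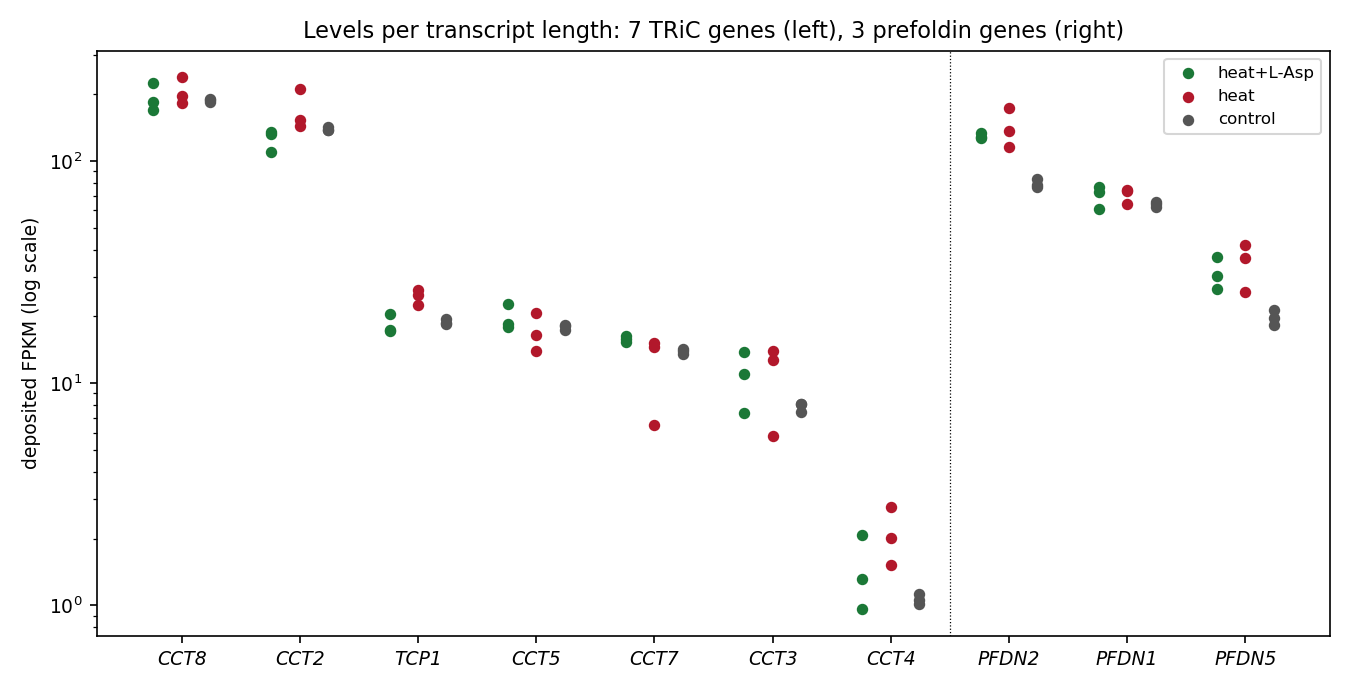
Deposited FPKM (y axis, log scale) of the 7 TRiC genes and the 3 prefoldin genes, with 1 point per library and the groups heat plus L-Asp, heat and control from left to right within each gene. CCT8 and CCT2 lie above 100 FPKM in every library, whereas CCT4 lies below 3 FPKM.

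Of the 3 prefoldin genes, PFDN2 and PFDN5 lay above control in every heated library, and PFDN1 did not. PFDN2, a beta-type subunit (ENSSSCG00000055102, chromosome 4, 89326798 to 89342325, plus strand), measured 236, 227 and 227 CPM with heat plus L-Asp, 246, 278 and 212 CPM with heat, and 161, 148 and 151 CPM in the control libraries. All 6 heated libraries lay above all 3 control libraries, and the heated groups overlapped. The share of all genes with this separation was not computed. All 3 libraries lay above the averaged control in 17.3% of all genes tested with heat and in 19% with heat plus L-Asp. PFDN2 averaged 245 ± 33.2 CPM with heat (SD, n = 3) against 153 CPM in the averaged control, a log2 fold change of 0.68 ± 0.28 (SE). The unadjusted p was 0.0331, and the adjusted p was 1 (Benjamini-Hochberg over all genes, quasi-likelihood test of edgeR). With the 3 control libraries kept apart as replicates the adjusted p was 0.0225 by edgeR, and by DESeq2 on the 7 samples it was 0.356. With heat plus L-Asp it averaged 230.0 ± 4.93 CPM (SD, n = 3), 0.59 ± 0.28 (SE) above control on the log2 scale (adjusted p = 1, edgeR) and -0.09 ± 0.19 (SE) relative to heat (adjusted p = 0.973, edgeR).

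PFDN5, an alpha-type subunit also known to bind the MYC protein (ENSSSCG00000000267, chromosome 5, 18512697 to 18517174, plus strand), measured 84.2, 103 and 75.1 CPM with heat plus L-Asp, 103, 105 and 74.0 CPM with heat, and 65.2, 59.8 and 55.4 CPM in control. Here too each heated library lay above each control library. The log2 fold change was 0.65 ± 0.34 (SE) for heat against control (adjusted p = 1, edgeR) and 0.54 ± 0.34 (SE) for heat plus L-Asp against control (adjusted p = 1, edgeR). Between the heated groups it was -0.10 ± 0.23 (SE, adjusted p = 0.976, edgeR), and -0.24 to -0.0052 with 1 library left out.

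PFDN1, another beta-type subunit (ENSSSCG00000038493, chromosome 2, 142011063 to 142077925, minus strand), measured 108, 115 and 92.0 CPM with heat plus L-Asp, 112, 100.3 and 99.9 CPM with heat, and 107, 102 and 104 CPM in control. The groups overlapped, and its fold changes on the log2 scale were -0.01 ± 0.28 (SE) for heat against control, 0.01 ± 0.20 (SE) for heat plus L-Asp against heat and 0.01 ± 0.28 (SE) for heat plus L-Asp against control, and both values against control changed sign between scalings. The ratio of PFDN2 to PFDN1, which needs no scaling between libraries, was 1.68 to 2.09 in FPKM with heat plus L-Asp, 1.79 to 2.35 with heat and 1.22 to 1.27 in control. The balance of PFDN2 and PFDN1 RNA thus differed between each heated library and each control library. This ratio was chosen after the values were seen and has no test.

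Overlapping genes bear on these counts, because no strand marking is described for the preparation. PFDN2 overlaps NIT1 and KLHDC9 on the minus strand. NIT1 measured 1.07 to 2.30 CPM with heat plus L-Asp, 1.91 to 4.6 CPM with heat and 1.22 to 1.44 CPM in control. KLHDC9 measured at most 0.603 CPM in any library. PFDN5 overlaps MYG1 on the plus strand, which measured at most 1.18 CPM in any library. How reads in the shared stretches were counted is not given, and their part in the PFDN2 and PFDN5 values was not tested. PFDN1 overlaps no other gene of the table.

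**Figure D2:**
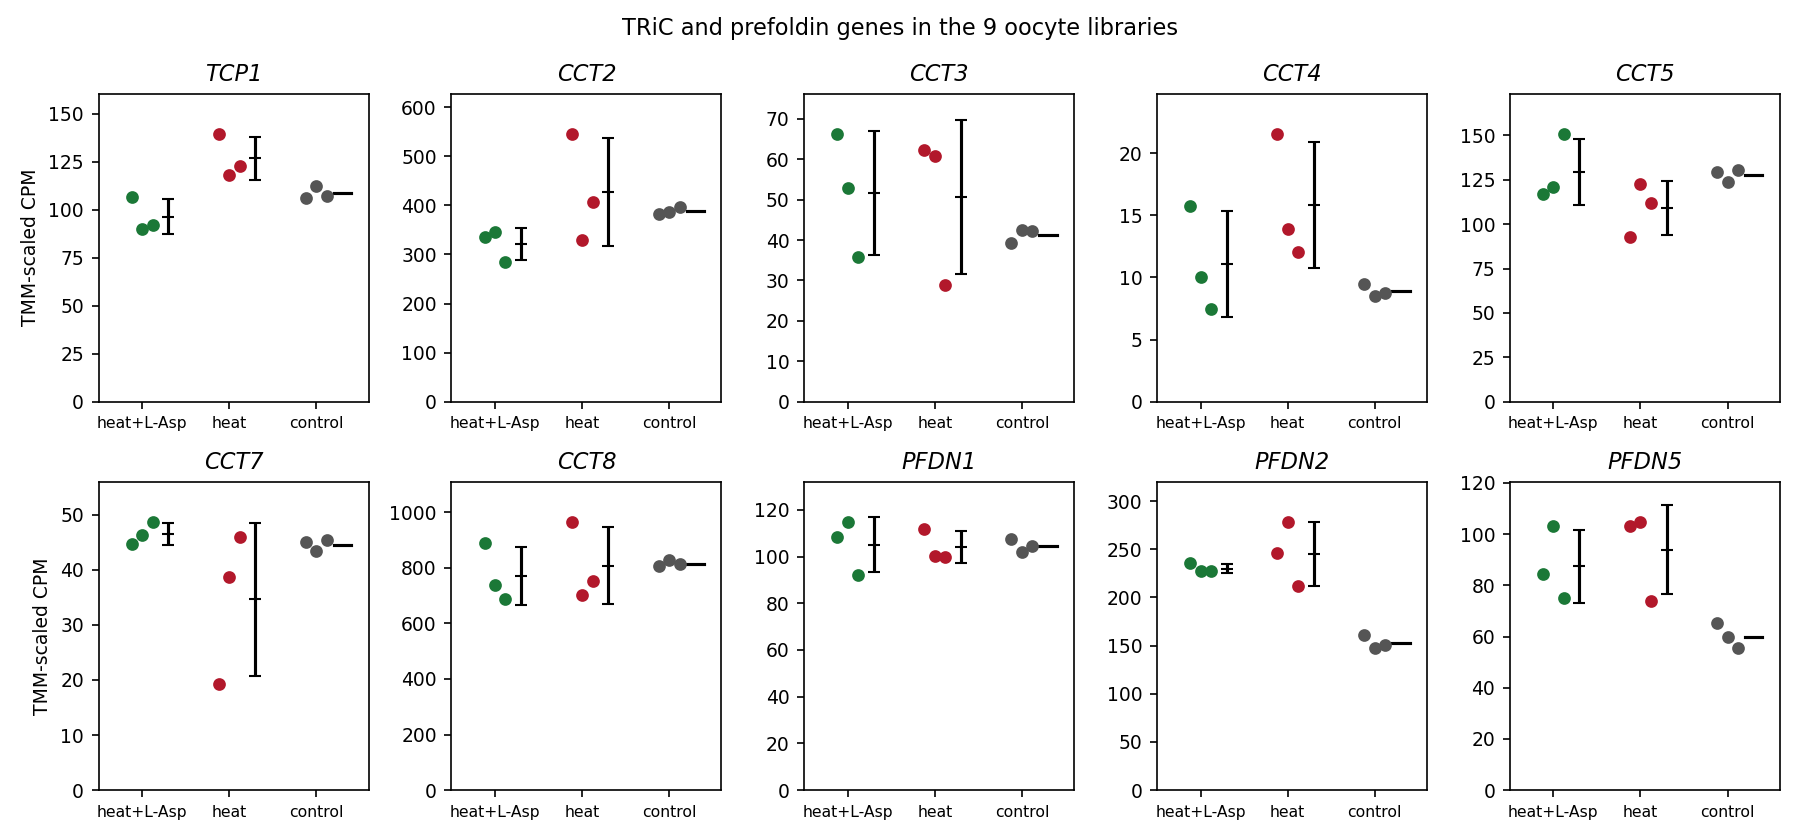
TMM-scaled CPM (y axis, from 0) of each of the 10 genes in the 9 libraries. Points are libraries in the groups heat plus L-Asp, heat and control from left to right, black marks with bars are the mean ± SD (n = 3) of the heated groups, and the black line beside control is the averaged control. PFDN2 and PFDN5 are the genes whose heated libraries all lie above the control libraries. The share of all genes for which this holds was not computed.

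The TRiC genes did not move in 1 direction. TCP1, the alpha subunit after which the complex is named (ENSSSCG00000004048, chromosome 1, 7590140 to 7601795, plus strand), measured 107, 90.1 and 92.0 CPM with heat plus L-Asp, 139.6, 118 and 123 CPM with heat, and 106, 113 and 107 CPM in control. It was the 1 member whose heated groups did not overlap, with all L-Asp libraries below all heat libraries. Its log2 fold change was -0.40 ± 0.20 (SE) for heat plus L-Asp against heat (adjusted p = 0.738, edgeR). Against control it was -0.17 ± 0.28 (SE) with heat plus L-Asp and 0.22 ± 0.28 (SE) with heat (adjusted p = 1 each, edgeR), the second being 0.15 without heat replicate 1. TCP1 overlaps ACAT2 on the minus strand (4.78 to 9.59 CPM with heat plus L-Asp, 9.98 to 15.8 CPM with heat and 6.64 to 9.10 CPM in control). It lies next to MRPL18, a mitochondrial ribosomal protein gene on the opposite strand 109 bp away, which measured 502 ± 16.0 CPM with heat plus L-Asp and 583 ± 120.0 CPM with heat (SD, n = 3 each), against 592 CPM in the averaged control.

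CCT2, the beta subunit (ENSSSCG00000000496, chromosome 5, 33858572 to 33873523, plus strand), measured 335, 345 and 285 CPM with heat plus L-Asp, 546, 330.2 and 407 CPM with heat, and 383, 386 and 396 CPM in control. Every L-Asp library lay below every control library, whereas the heat libraries lay on both sides. The log2 fold change was -0.41 ± 0.22 (SE) for heat plus L-Asp against heat (adjusted p = 0.743, edgeR), -0.27 ± 0.31 (SE) for heat plus L-Asp against control and 0.14 ± 0.32 (SE) for heat against control (adjusted p = 1 each, edgeR). Without heat replicate 1, the library with the highest CCT2, the value for heat plus L-Asp against heat was -0.20 and that for heat against control was -0.08.

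CCT4, the delta subunit and the member of lowest level (ENSSSCG00000008377, chromosome 3, 79924507 to 79946207, plus strand), measured 15.8, 10.1 and 7.46 CPM with heat plus L-Asp, 21.6, 13.9 and 12 CPM with heat, and 9.44, 8.51 and 8.78 CPM in control. All heat libraries lay above all control libraries, and the L-Asp libraries lay on both sides of control and overlapped the heat libraries. Its log2 fold change of 0.83 ± 0.60 (SE) for heat against control was the highest of the 10, with the widest error (adjusted p = 1, edgeR). It was -0.51 ± 0.40 (SE) for heat plus L-Asp against heat (adjusted p = 0.843, edgeR) and 0.32 ± 0.58 (SE) for heat plus L-Asp against control (adjusted p = 1, edgeR). Single libraries moved these values. Without heat replicate 1, heat against control gave 0.54, and heat plus L-Asp against heat gave -0.22. Without L-Asp replicate 1, heat plus L-Asp against heat gave -0.85 and heat plus L-Asp against control -0.02, whereas without L-Asp replicate 3 they gave -0.29 and 0.54.

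CCT5, the epsilon subunit (ENSSSCG00000024126, chromosome 16, 72208012 to 72223114, minus strand), lay the other way. It measured 117, 121 and 151 CPM with heat plus L-Asp, 92.6, 123 and 112 CPM with heat, and 129, 124 and 130.3 CPM in control. All 3 heat libraries were below the averaged control, by little in replicate 2, and the L-Asp libraries lay on both sides of it. The log2 fold change was -0.23 ± 0.29 (SE) for heat against control (adjusted p = 1, edgeR) and 0.25 ± 0.21 (SE) for heat plus L-Asp against heat (adjusted p = 0.861, edgeR). Without heat replicate 1 these values were -0.13 and 0.15, and the second was 0.13 without L-Asp replicate 3.

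CCT7, the eta subunit (ENSSSCG00000008303, chromosome 3, 69526534 to 69546548, minus strand), measured 44.6, 46.4 and 48.6 CPM with heat plus L-Asp, 19.2, 38.6 and 46.0 CPM with heat, and 45.0, 43.4 and 45.4 CPM in control. Heat replicate 1 alone lay far below the others. The log2 fold change for heat against control was -0.36 ± 0.44 (SE) with all libraries (adjusted p = 1, edgeR), -0.07 without that replicate and -0.63 without heat replicate 3. Between the heated groups it was 0.43 ± 0.32 (SE, adjusted p = 0.829, edgeR), and leaving out the same libraries gave 0.14 and 0.69.

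CCT3, the gamma subunit (ENSSSCG00000006487, chromosome 4, 93733918 to 93753340, plus strand), varied within each heated group, at 66.3, 53.0 and 35.8 CPM with heat plus L-Asp and 62.3, 60.9 and 28.8 CPM with heat, against 39.3, 42.4 and 42.2 CPM in control. In each heated group 1 library lay below control and the other two above it. The log2 fold change was 0.29 ± 0.48 (SE) for heat against control, 0.03 ± 0.34 (SE) for heat plus L-Asp against heat and 0.32 ± 0.49 (SE) for heat plus L-Asp against control. Leaving out 1 library gave 0.12 to 0.57, -0.25 to 0.24 and 0.10 to 0.53 for the same comparisons.

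CCT8, the theta subunit and the most abundant member (ENSSSCG00000026761, chromosome 13, 192406281 to 192423413, minus strand), measured 888, 737 and 686 CPM with heat plus L-Asp, 964, 703 and 753 CPM with heat, and 805, 826 and 814 CPM in control. Its log2 fold change was -0.02 for heat against control, -0.07 for heat plus L-Asp against heat and -0.08 for heat plus L-Asp against control, and both values against control changed sign between scalings. CCT8 overlaps USP16, an ubiquitin-specific protease gene on the plus strand with 401 ± 99.4 CPM with heat plus L-Asp and 594 ± 258 CPM with heat (SD, n = 3 each), against 561 CPM in the averaged control. Reads of CCT8 and USP16 in the shared stretch cannot be told apart.

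Read over the 10 genes, heat against control asks what the early heat did to the RNA of this folding machinery. The test called 0 of the 10, and 0 of the 15012 genes tested (0%), with an adjusted p (edgeR) under 0.05 as the threshold. At an unadjusted p under 0.05 it had 1 of the 10 (PFDN2), against 579 genes or 3.86% of all (1.96% higher and 1.9% lower). DESeq2 called 0 of the 10, against 172 genes or 1.01% of the 17008 to which it gave an adjusted p. The fold change was above 0 for 6 of the 10, against 50.1% of all genes. All 3 heat libraries were above the averaged control for 4 of the 10 (TCP1, CCT4, PFDN2 and PFDN5), against 17.3% of all genes, and below it for 1 (CCT5), against 25%. The median log2 fold change of the 10 was 0.18, and 0.00 over all genes tested, with the same sign under each scaling tried. It was 0.03 without heat replicate 1. For the 7 TRiC genes the median was 0.14 and for the 3 prefoldin genes 0.65.

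Heat plus L-Asp against heat asks what the added compound did during the heat. Again 0 of the 10 were called, and 0 of 15012 genes (0%). None of the 10 had an unadjusted p under 0.05 by edgeR, against 993 genes or 6.61% of all (3.52% higher and 3.1% lower). DESeq2 called 0 of the 10, against 183 genes or 1.1% of the 16574 with an adjusted p. Fold changes were above 0 for 4 of the 10, against 49% of all genes. The groups did not overlap for 1 of the 10 with L-Asp lower (TCP1), against 5.54% of all genes, and for 0 with L-Asp higher, against 6.31%. The median log2 fold change was -0.08, against -0.01 over all genes tested, and leaving out single libraries moved it both ways. It was 0.02, -0.02 and -0.21 without heat replicates 1, 2 and 3, and -0.15, -0.05 and 0.00 without L-Asp replicates 1, 2 and 3.

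The L-Asp group was also set against unheated oocytes. For heat plus L-Asp against control, 0 of the 10 and 0 of 15012 genes (0%) were called by edgeR. At an unadjusted p under 0.05 there were 0 of the 10, against 484 genes or 3.22% (1.63% higher and 1.6% lower). DESeq2 called 0 of the 10, against 64 genes or 0.386% of the 16574 with an adjusted p. Fold changes were above 0 for 7 of the 10, against 50.5%. All 3 L-Asp libraries lay above the averaged control for 3 of the 10 (CCT7, by little, PFDN2 and PFDN5), against 19%, and below it for 2 (TCP1 and CCT2), against 26%. The median log2 fold change was 0.04, and 0.01 over all genes tested. It was 0.02 without control replicate 2 and 0.08 without L-Asp replicate 2. The 3 comparisons share libraries, so the 3 fold changes of a gene are not separate measurements.

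**Figure D3:**
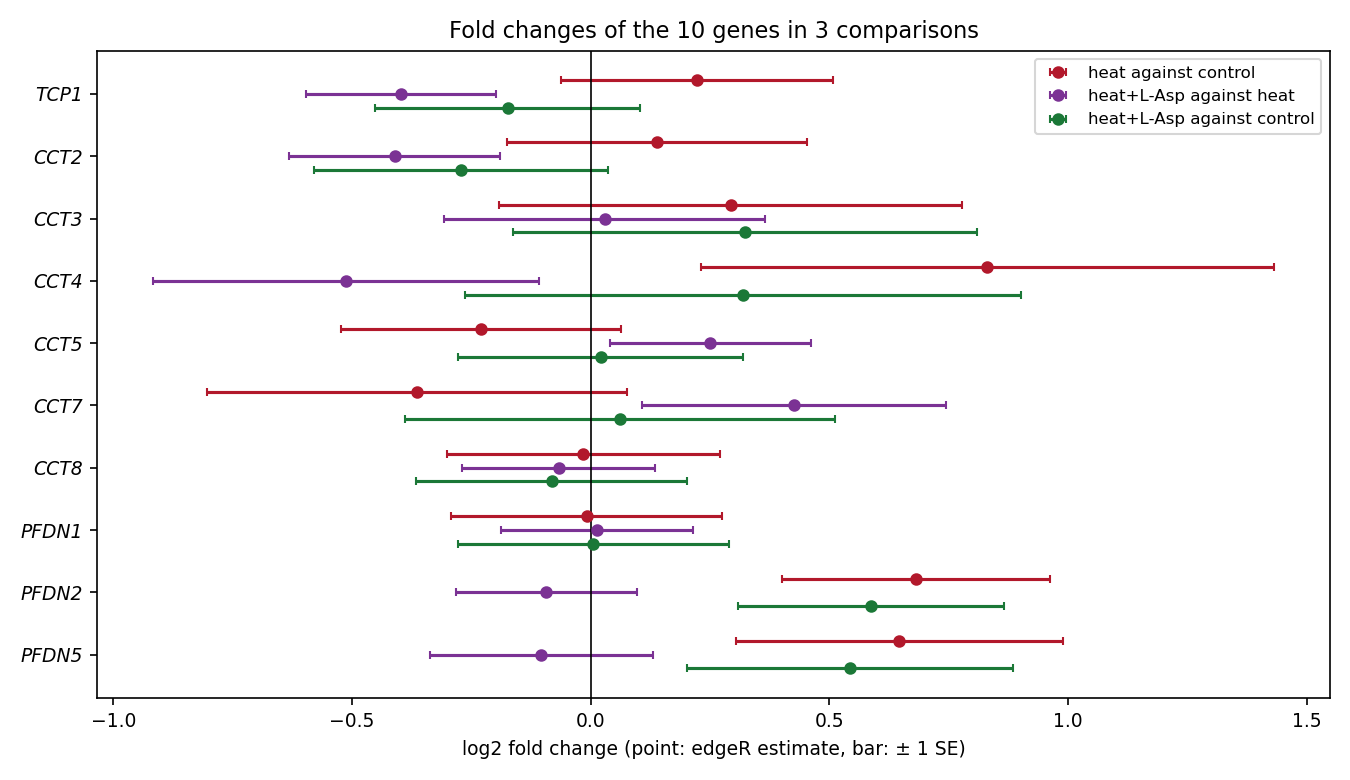
Log2 fold change (x axis) of the 10 genes in the 3 comparisons, as the edgeR estimate ± 1 SE. PFDN2 and PFDN5 lie near 0.6 in both comparisons with control and near 0 between the heated groups, and the TRiC genes lie on both sides of 0.

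Among themselves, some of the 10 genes were high in the same libraries, some ran against each other, and some were little correlated. Over the 7 samples (averaged control, 3 heat, 3 heat plus L-Asp), 27 of the 45 pairs of genes had a Pearson correlation of log2 CPM above 0, with a median of 0.16. PFDN2 and PFDN5 had 0.86, and TCP1 and CCT2 had 0.81. CCT5 and CCT7 had 0.79 with each other, but CCT5 had -0.90 with CCT2 and -0.89 with CCT4. These values describe 7 samples that share their scaling and have no test. The ratio of CCT2 to CCT5 in FPKM, free of scaling between libraries, was 7.38, 7.32 and 4.85 with heat plus L-Asp, 15.2, 6.92 and 9.36 with heat, and 7.61, 8.0 and 7.82 in control. It was thus highest in heat replicate 1 and lowest in L-Asp replicate 3. These 2 genes had the lowest correlation of the 45 pairs in the same libraries, so a wide ratio follows from the choice. The ratio has no test.

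Heat replicate 1 stood apart for several members, with the highest level of TCP1, CCT2, CCT4 and CCT8 among the 9 libraries and the lowest of CCT5 and CCT7. Other measures stood apart in that library. Its share of counts from mitochondrial DNA was 3.09%, against 5.18% and 14.5% in the other heat libraries, 5.30% to 9.47% with heat plus L-Asp and 10.0% to 10.1% in control. The 24 cumulus and granulosa marker genes in the table summed to 1318 to 1353 CPM with heat plus L-Asp, 1700.1, 1411 and 1329 CPM with heat and 1293 to 1336 CPM in control. Most of this sum was RGS2, at 1321 CPM in heat replicate 1 and 925 to 954 CPM in control. VCAN measured 184 CPM in that replicate and 127 to 138 CPM in control. Of 16 marker genes tested, 12 had a fold change above 0 for heat against control. FST, GATA4, PTGS2 and CYP19A1 lay below 0. FST measured 31.0 to 36.8 CPM with heat plus L-Asp, 24.8 to 43.4 CPM with heat and 48.6 to 50.3 CPM in control. GATA4 measured 103, 143 and 168 CPM with heat plus L-Asp, 42.9, 48.5 and 120 CPM with heat and 82.4 to 86.9 CPM in control. The somatic marker CYP11A1, a steroid-producing enzyme, measured 0.687 to 7.80 CPM with heat plus L-Asp, 5.98, 6.37 and 15.1 CPM with heat, and 0 to 0.116 CPM in control. DESeq2 called CYP11A1 against control in both heated groups and the somatic markers GJA1 and GATA6 for heat against control. GJA1, a gap junction protein, measured 1.60 to 7.03 CPM with heat plus L-Asp, 6.97, 7.15 and 13.4 CPM with heat, and 0.191 to 1.56 CPM in control. Among heat libraries both CYP11A1 and GJA1 were lowest in replicate 1, where the marker sum was highest. AMH was at 0 in all heat and control libraries, and GATA6 and INHBA were at 0 in all control libraries. Markers of theca and stroma (8 genes in the table) summed to 8.38 to 10.8 CPM with heat plus L-Asp, 4.75 to 9.78 CPM with heat and 11.4 to 12.5 CPM in control. Those of blood and immune cells (7 genes) summed to at most 5.10 CPM, and those of endothelium (3 genes) to 23.6 to 42.5 CPM, over all libraries. The part of other cells' RNA in the members' values was not tested.

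The ribosomal protein genes, whose RNA differed between heated and control libraries in the same direction as PFDN2 and PFDN5, summed to 4768 to 5169 CPM with heat plus L-Asp, 4803 to 6038 CPM with heat and 3341 to 3431 CPM in control over 63 genes. Their part in the prefoldin values was not tested. The 3 prefoldin genes summed to 394 to 445 CPM with heat plus L-Asp, 385 to 483 CPM with heat and 310 to 333 CPM in control. The 7 TRiC genes summed to 1305 to 1574 CPM, 1387 to 1845 CPM and 1516 to 1544 CPM in the same order of groups, so that both heated groups lay on either side of control. In FPKM, the sum of the 7 TRiC genes over that of the 3 prefoldin genes was 1.59 to 1.80 with heat plus L-Asp, 1.43 to 2.07 with heat and 2.24 to 2.44 in control. All heated libraries thus had less RNA of these 7 genes relative to these 3 than any control library, a ratio chosen after the values were seen. It leaves out the other subunit genes, among them PFDN4 with a mean of 88.1 FPKM in control.

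The remaining subunit genes of the complexes, CCT6A, CCT6B, PFDN4, PFDN6 and VBP1, were all tested and 0 of the 5 were called by edgeR in any comparison. PFDN6, a beta-type prefoldin subunit, measured 25.7, 29.4 and 34.3 CPM with heat plus L-Asp, 35.4, 31.9 and 19.5 CPM with heat, and 18.2, 20.1 and 17.2 CPM in control, so that the L-Asp libraries lay above control and 1 heat library overlapped it. Its log2 fold change was 0.69 ± 0.45 (SE) for heat plus L-Asp against control and 0.64 ± 0.45 (SE) for heat against control. PFDN4, a further beta-type subunit and the most abundant of these genes, measured 306 ± 59.1 CPM with heat plus L-Asp and 267 ± 11.2 CPM with heat (SD, n = 3 each), against 263 CPM in the averaged control. VBP1, the other alpha-type prefoldin subunit, measured 105 CPM in heat replicate 1, against 49.0 and 49.3 CPM in the other heat libraries, 35.0 to 59.0 CPM with heat plus L-Asp and 45.0 to 48.6 CPM in control.

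CCT6A, the zeta subunit of TRiC, measured 59.0, 37.7 and 21.2 CPM with heat plus L-Asp, 63.0, 62.9 and 36.6 CPM with heat, and 36.1, 36.7 and 36.0 CPM in control. The L-Asp libraries spanned control and overlapped the heat libraries. CCT6B, a zeta subunit known from testis in mammals, measured 16.4 ± 3.48 CPM with heat plus L-Asp and 21.2 ± 4.75 CPM with heat (SD, n = 3 each), against 19.4 CPM in the averaged control. For heat against control 5 of these 5 genes had a fold change above 0, with a median of 0.52 on the log2 scale. Between the heated groups it was 2 of 5 with a median of -0.37, and for heat plus L-Asp against control 3 of 5 with a median of 0.12.

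**Figure D4:**
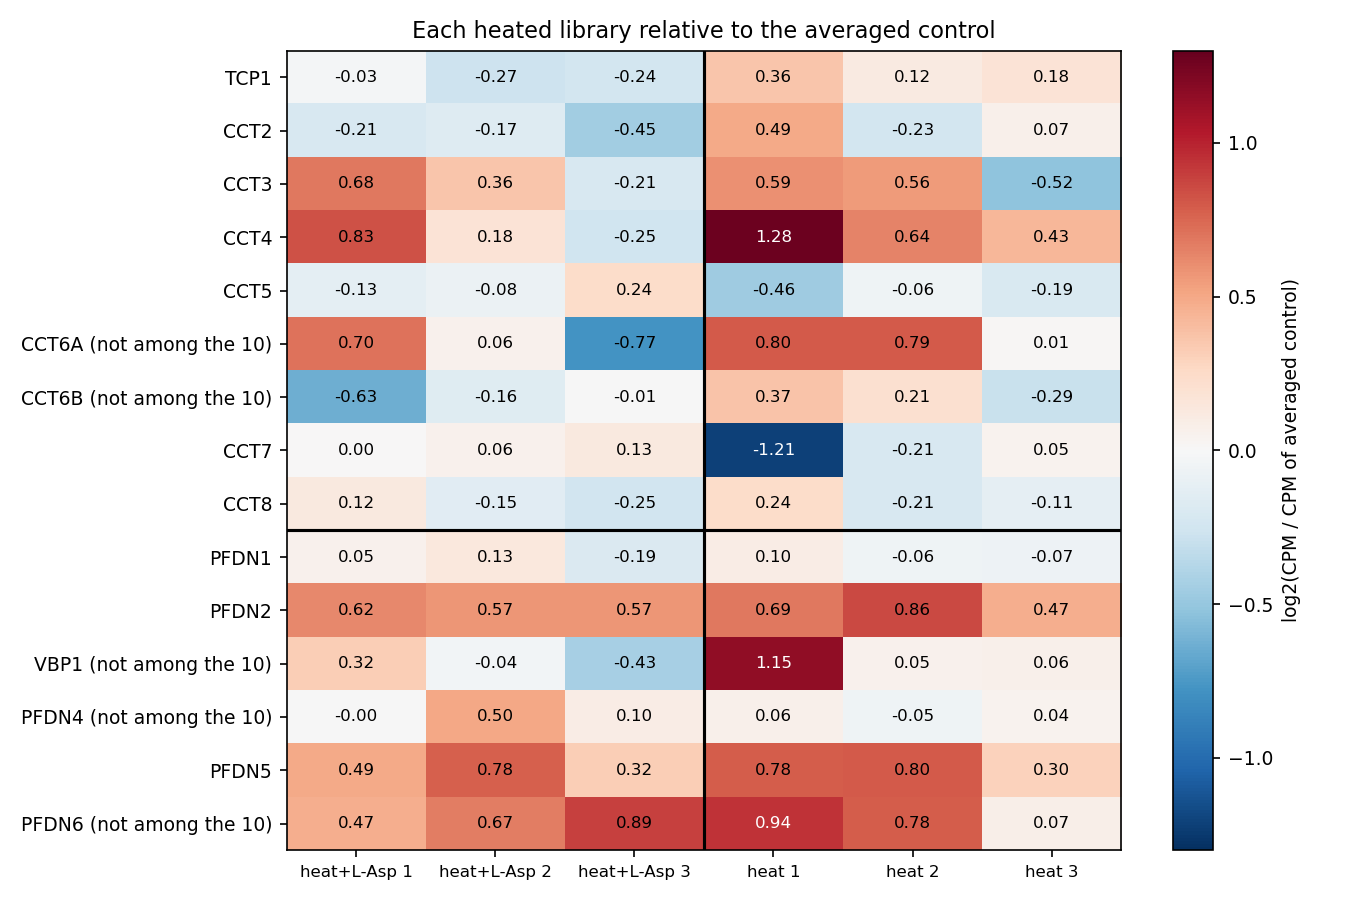
Log2 ratio of the CPM in each heated library to the averaged control for all 15 subunit genes of TRiC (upper block) and prefoldin (lower block), with heat plus L-Asp libraries left and heat libraries right. PFDN2, PFDN5 and PFDN6 are above 0 in all 6 libraries, and heat replicate 1 holds both the highest value, 1.28 for CCT4, and the lowest, -1.21 for CCT7.

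Cofactors and clients of the machinery were read from lists, and edgeR called 0 genes of each list in each comparison. Of 13 tested cofactors of TRiC and of prefoldin-like complexes, 6 had a fold change above 0 for heat against control (median -0.01), 5 for heat plus L-Asp against heat (median -0.15) and 5 for heat plus L-Asp against control (median -0.20), on the log2 scale. TXNDC9, a phosducin-like protein that binds TRiC, measured 509, 409 and 285 CPM with heat plus L-Asp, 540.3, 466 and 563 CPM with heat, and 433, 427 and 454 CPM in control. RPAP3, a scaffold of the R2TP complex, measured 308 ± 74.4 CPM with heat plus L-Asp and 386 ± 164 CPM with heat (SD, n = 3 each), against 443 CPM in the averaged control. The prefoldin-like protein PDRG1 measured 104 ± 23.9 CPM and 138 ± 34.4 CPM in those groups, against 124 CPM. RUVBL1, an ATPase of R2TP, measured 30.0 ± 10.9 CPM and 35.1 ± 21.4 CPM, against 53.8 CPM. PIH1D1, a further R2TP protein, measured 12.9 ± 6.07 CPM and 12.2 ± 1.81 CPM, against 7.39 CPM, and BBS12 measured at most 2.53 CPM in any library.

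A further group, the tubulin folding cofactors, takes tubulin over from TRiC. Of 9 tested, 4 had a fold change above 0 in each of the 3 comparisons, with medians of -0.31 for heat against control, -0.05 for heat plus L-Asp against heat and -0.17 for heat plus L-Asp against control. TBCA, which binds beta-tubulin, measured 40.7, 66.9 and 44.0 CPM with heat plus L-Asp, 73.5, 39.8 and 60.0 CPM with heat, and 33.2, 32.4 and 34.4 CPM in control. All heated libraries lay above the control libraries. TBCC measured 13.9, 22 and 15.1 CPM with heat plus L-Asp and 19.1, 20.5 and 13.0 CPM with heat, against 26.7, 26.4 and 25.9 CPM in control, and all heated libraries lay below control. Over all genes tested, all 3 heat libraries lay above the averaged control in 17.3% and below it in 25%. With heat plus L-Asp the shares were 19% and 26%. TBCB, which binds alpha-tubulin, measured 165 ± 33.1 CPM with heat plus L-Asp and 149.95 ± 20.1 CPM with heat (SD, n = 3 each), against 186 CPM in the averaged control. TBCEL, a relative of TBCE known to destabilise tubulin, measured 154 ± 22.9 CPM with heat plus L-Asp and 232 ± 83.2 CPM with heat (SD, n = 3 each), against 141 CPM in the averaged control. Its log2 fold change between the heated groups was -0.59 ± 0.26 (SE, adjusted p = 0.738, edgeR).

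Of 27 listed actin and tubulin genes 20 were in the table and tested. For heat against control 11 had a fold change above 0 (median 0.06), for heat plus L-Asp against heat 11 (median 0.05) and for heat plus L-Asp against control 9 (median -0.02), on the log2 scale. ACTG1, the main cytoplasmic actin gene in these libraries, measured 290, 266 and 241 CPM with heat plus L-Asp, 215, 259 and 279 CPM with heat, and 252, 241 and 253 CPM in control, and the groups overlapped. ACTB measured at most 1.75 CPM and ACTA2 at most 0.539 CPM in any library. ACTR2, a subunit of the actin-branching complex, measured 137 ± 9.28 CPM with heat plus L-Asp and 157 ± 22.5 CPM with heat (SD, n = 3 each), against 139 CPM in the averaged control. TUBA1A, an alpha-tubulin gene, measured 66.9, 59.6 and 71.5 CPM with heat plus L-Asp, 74.2, 86.5 and 68.3 CPM with heat, and 101, 103 and 145 CPM in control. All heated libraries lay below control, with a log2 fold change of -0.82 ± 0.29 (SE) for heat plus L-Asp against control (adjusted p = 1, edgeR). TUBA1B, a near-identical paralog, measured 160 ± 31.8 CPM and 158 ± 22.5 CPM in the heated groups (SD, n = 3 each), against 177, 178 and 236 CPM in control. Control replicate 3 stood above the other control libraries for both genes, which can share reads. All 3 libraries lay below the averaged control in 25% of all genes tested with heat and in 26% with heat plus L-Asp. The beta-tubulin gene TUBB measured 28.1 ± 7.36 CPM with heat plus L-Asp and 23.4 ± 13.0 CPM with heat (SD, n = 3 each), against 13.5 CPM in the averaged control.

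Gamma-tubulin TUBG1, which nucleates microtubules, measured 27.4, 29.5 and 36.2 CPM with heat plus L-Asp, 8.41, 9.72 and 26.1 CPM with heat, and 31.4, 31.2 and 29.1 CPM in control. The heated groups did not overlap, and the log2 fold change for heat plus L-Asp against heat was 1.08 ± 0.42 (SE, adjusted p = 0.738, edgeR). Other known TRiC clients lay above 0 in 6 of 16 genes for heat against control (median -0.23), in 12 of 16 for heat plus L-Asp against heat (median 0.33) and in 12 of 16 for heat plus L-Asp against control (median 0.25). GNB1, a G protein beta subunit of the kind TRiC folds, measured 69.6, 71.4 and 93.8 CPM with heat plus L-Asp, 26.1, 44.2 and 42.3 CPM with heat, and 87.6, 81.2 and 81.7 CPM in control, without overlap between the heated groups. Its log2 fold change for heat plus L-Asp against heat was 1.06 ± 0.27 (SE). The adjusted p was 0.738 in the edgeR fit, and DESeq2 gave 0.0282. PLK1, a mitotic kinase, measured 58.9, 93.2 and 120.0 CPM with heat plus L-Asp, 30.6, 41.4 and 69.9 CPM with heat, and 54.5, 59.3 and 55.9 CPM in control. CCNE1, a cyclin, measured 122 ± 5.57 CPM with heat plus L-Asp and 96.9 ± 2.87 CPM with heat (SD, n = 3 each), against 113 CPM in the averaged control. The G protein subunit GNB4 measured 186 ± 21.1 CPM and 195 ± 23.9 CPM in those groups, against 166 CPM, and GNB2 28.8 ± 6.48 CPM and 22.9 ± 7.76 CPM, against 17.7 CPM. FZR1, a relative of CDC20, measured 18.7 ± 7.78 CPM and 14.1 ± 5.06 CPM, against 9.89 CPM, and WDR5, a subunit of histone methyltransferase complexes, 8.74 ± 0.856 CPM and 9.37 ± 1.64 CPM, against 5.31 CPM. CDC20 measured 137, 184 and 337 CPM with heat plus L-Asp, 86.6, 186 and 117 CPM with heat, and 189.5, 181 and 193 CPM in control, with overlap between the heated groups.

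Chaperones outside the pair of complexes were set beside them. Mitochondria have their own chaperonin, made of HSPD1 and its lid HSPE1. HSPE1 measured 1261 ± 116 CPM with heat plus L-Asp and 1096 ± 53.0 CPM with heat (SD, n = 3 each), against 1159 CPM in the averaged control, and HSPD1 70.6 ± 1.76 CPM and 74.0 ± 24.5 CPM, against 82.3 CPM. Of 22 tested cytosolic heat shock genes, 14 had a fold change above 0 for heat against control (median 0.17), 9 for heat plus L-Asp against heat (median -0.19) and 13 for heat plus L-Asp against control (median 0.05). The widest difference of the list from control was in UBB, a polyubiquitin gene and its most abundant member, which measured 6547, 5151 and 5472 CPM with heat plus L-Asp, 4265, 5233 and 5211 CPM with heat, and 16411, 16272 and 16315 CPM in control. All heated libraries lay far below all control libraries. For heat against control UBB had the smallest p of all genes tested, with a log2 fold change of -1.74 ± 0.25 (SE). Its adjusted p was 0.249 in the edgeR fit, and DESeq2 called it with 3.42e-06. For heat plus L-Asp against control the log2 fold change was -1.51 ± 0.25 (SE), with 0.579 as the adjusted p of edgeR and 0.000343 as that of DESeq2. Other polyubiquitin genes carry near-identical repeats, so the reads of UBB may be shared with them. HSPA8, the constitutive HSP70 that can pass unfolded proteins on to TRiC, measured 297, 212 and 232 CPM with heat plus L-Asp, 417, 290.3 and 302 CPM with heat, and 168, 171 and 166 CPM in control. All heated libraries lay above control, with a log2 fold change of 1.00 ± 0.33 (SE) for heat against control (adjusted p = 0.841, edgeR). Over all genes tested, all 3 heat libraries lay above the averaged control in 17.3% and below it in 25%. With heat plus L-Asp the shares were 19% and 26%. DNAJA1, an HSP40 partner and an abundant gene of the list, measured 1975 ± 295 CPM with heat plus L-Asp and 2479 ± 366 CPM with heat (SD, n = 3 each), against 2265 CPM in the averaged control. HSP90AB1, a cytosolic HSP90, measured 1057 ± 172 CPM and 1059 ± 157 CPM in those groups, against 1016 CPM. HSPH1, an exchange factor of HSP70, measured 188 ± 45.0 CPM and 288 ± 84.5 CPM, against 181 CPM, and AHSA1, an activator of HSP90, 780.1 ± 129 CPM and 562 ± 91.3 CPM, against 635 CPM.

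Genes whose profile was most like that of the members were found by Pearson correlation with the mean of the members' standardised log2 CPM over the 7 samples, among 5748 genes of at least 10 CPM with a symbol. They were SARNP (0.97), ADGRA3 (0.97), OSBPL6 (0.97), C6orf62 (0.97) and MED13 (0.97). The members shared no single profile, with a median correlation of 0.16 between pairs and -0.90 between CCT2 and CCT5. Their mean therefore averages over opposed members. The mean profile was highest in heat replicate 1 and lowest in L-Asp replicate 3, and SARNP measured 319, 317 and 252 CPM with heat plus L-Asp, 359, 328 and 268 CPM with heat, and 268, 254 and 244 CPM in control. With 7 samples and so many candidates, values of this size describe the libraries and have no test.

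Spread between libraries and the averaging of control both limited these comparisons. The coefficient of variation of the 10 genes had a median of 12.4% with heat plus L-Asp and 17.8% with heat. Over 6763 tested genes of at least 8 CPM in control, not matched to the members in level, it was 20.1% and 24.8%. It was lowest for PFDN2 with heat plus L-Asp, at 2.14%, and highest for CCT7 with heat, at 39.95%. The lone averaged control was assumed to vary like the heated groups, and its own spread could not be measured.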

How the data were processed

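Polyadenylated RNA of pig MII oocytes was sequenced in 3 groups of 3 libraries, with groups and replicate numbers from the titles. Per the labels' protocols, cDNA was primed with oligo(dT), amplified, fragmented and read in pairs; no strand marking is described and no molecular identifiers, so a molecule can be counted repeatedly. The deposited table holds raw counts and FPKM computed by the authors, per the file headers. The submitters' processing notes list StringTie 2.1.6, HISAT2 2.2.1 and cutadapt 1.9, next to edgeR and DESeq2, with no role for any. Neither the build nor the counting method is given in the sources used here, and coordinates are those of the table. It holds 6 further columns of per-sample values, which were not used.

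Deposited counts were used as they are. Control libraries were averaged (rounded mean) because they were far closer to each other than heated libraries were, though not within sampling noise. Genes were filtered with filterByExpr on the 9 libraries (15012 of 23507 kept), scaled by TMM and tested with edgeR 4.0.16 (glmQLFit with robust = TRUE, glmQLFTest, 1 mean per group, 4 residual degrees of freedom, R 4.3.3), adjusting p over all genes tested (threshold 0.05). SE is the absolute log2 fold change over the square root of F. DESeq2 1.42.0 was an alternative. Other alternatives were 9 libraries, other scalings, other filters, leaving out each library and a replicate block. Levels between genes use the deposited FPKM. The members, the gene lists and the averaging of control were chosen with earlier results of these data known. Named genes were all members, the other subunits, and from each list genes of highest level or smallest p. Most genes of the marker lists are given only within sums.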

Additional observations from a re-analysis of the deposited data

How the results depend on the processing

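For heat against control, 0 genes were called, against 433 with 9 libraries, 378 with 9 libraries and a replicate block, 172 with DESeq2 and 9 without a filter on low counts; leaving out 1 library gave 0 to 1. PFDN2 was the 1 member called with 9 libraries (log2 fold change 0.69, adjusted p = 0.0225, edgeR) and with the replicate block (0.68, adjusted p = 0.0409, edgeR), and 0 members were called under any other alternative; over all alternatives its adjusted p ran from 0.0225 to 1 (edgeR or DESeq2). For heat plus L-Asp against heat, 0 genes were called, against 2 with 9 libraries, 183 with DESeq2, 2 with filterByExpr on 7 samples and 2 without a filter; leaving out 1 library gave 0 to 3, and the replicate block on 6 or 9 libraries 0. For heat plus L-Asp against control it was 0, against 269 with 9 libraries, 223 with the block, 64 with DESeq2 and 3 without a filter; leaving out 1 library gave 0 to 1.

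The numbers were not taken as pairs: deviations of same-numbered heat and L-Asp libraries correlated at 0.44, -0.16 and 0.11, and heat replicates 2 and 3 correlated best with another number. With library totals only, the median of all genes moved to 0.19 for heat against control and 0.18 for heat plus L-Asp against control, and the members' median for heat plus L-Asp against control moved to 0.22, against 0.04. Of 550 member values under alternatives 516 kept their sign. For heat against control, CCT8 (-0.02) and PFDN1 (-0.01) turned to 0.019 and 0.027 with DESeq2 size factors, 0.17 and 0.18 with totals only, 0.019 and 0.026 with DESeq2, and 0.012 and 0.021 at mean counts of 50 or more. Set against control, heat plus L-Asp gave PFDN1 (0.01) -0.0089 with TMM without mitochondrial genes, -0.013 without a filter and -0.011 with filterByExpr on 7 samples, and with totals only TCP1 was 0.0015 and CCT8 0.094.

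Leaving out 1 library in turn gave, for heat against control, -0.076 to 0.29 for CCT2, -0.16 to 0.074 for CCT8 and -0.064 to 0.018 for PFDN1. It gave, for heat plus L-Asp against heat, -0.25 to 0.24 for CCT3, -0.18 to 0.081 for CCT8, -0.034 to 0.10 for PFDN1 and -0.18 to 0.0069 for PFDN2. Against control, heat plus L-Asp gave -0.022 to 0.54 for CCT4, -0.10 to 0.091 for CCT5 and -0.052 to 0.093 for PFDN1. The cause of these changes was not tested. The lone control and 4 residual degrees of freedom limit what these comparisons can show.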
